A study of Homo sapiens with 13 samples.

Results

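Genes that restrain BMP signalling inside the cell or at its membrane were followed in human embryonic stem cells: SMAD6, SMAD7, BAMBI, SMURF1, SMURF2, SKI and SKIL. They were found by their symbols in the count tables of both experiments, which gave 7 genes of 61541. All 13 libraries came from RUES2, a human embryonic stem cell line, carrying a GFP::SMAD4 fusion. In the time series, 2 libraries were made at 0 h and 1 library each at 4, 12, 20, 28 and 42 h of treatment with 100 ng/mL BMP4, 5 µM IWP2 and RI, a ROCK inhibitor. IWP2 blocks the secretion of Wnt ligands. The labels of the 0 h libraries carry the same treatment with a time of 0 h. In the dose response, 5 libraries received the same BMP4, IWP2 and RI for 5 h with LDN-193189, an inhibitor of BMP type I receptors, at 0, 10, 30, 100 or 300 nM. The sixth library of that experiment is labelled mTeSR, the maintenance medium, and is called untreated here. By these labels a contrast with it covers BMP4, IWP2 and RI together, although the growth protocol also lists ROCK inhibitor in the maintenance medium. The BMP4 increment described below is this combined difference. The time series asked how expression moved as signalling went on, and the dose response asked how it followed the strength of signalling at a fixed time.

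BMP ligands activate receptor kinases that phosphorylate SMAD1, SMAD5 and SMAD9, which bind SMAD4 and enter the nucleus to switch on target genes. Some of those targets are inhibitors of the same pathway, so that a cell exposed to BMP dampens its own response. SMAD6 and SMAD7 are inhibitory SMADs that occupy receptors or compete for SMAD4. BAMBI is a pseudoreceptor in the membrane that resembles a type I receptor but has no kinase. SMURF1 and SMURF2 are E3 ubiquitin ligases that mark SMADs and receptors for degradation, and SMAD6 or SMAD7 can bring them to a receptor. SKI and SKIL are nuclear corepressors that bind SMADs on DNA and recruit histone deacetylase complexes.

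The genes lie on 7 chromosomes. In GENCODE coordinates on GRCh38 they are SMAD6 at chr15:66702236-66782849, SMAD7 at chr18:48919853-48950965, BAMBI at chr10:28677510-28682932, SMURF1 at chr7:99027440-99144108, SMURF2 at chr17:64542282-64662307, SKI at chr1:2227388-2310213 and SKIL at chr3:170357342-170396835. The sequences just before the start of SMAD6, SMAD7 and BAMBI are shown because these 3 genes carried the response described below. They are RefSeq promoter sequences on GRCh38.p14 and read 5′ to 3′ on the strand of the gene. SMAD6 is at chr15:66701986-66702235 on the plus strand, SMAD7 at chr18:48950966-48951215 on the minus strand and BAMBI at chr10:28677271-28677509 on the plus strand. Capitals mark GTCTAGAC, the palindromic SMAD binding element, and GGCGCC, a GC-rich element bound by SMAD1 and SMAD5.
SMAD6: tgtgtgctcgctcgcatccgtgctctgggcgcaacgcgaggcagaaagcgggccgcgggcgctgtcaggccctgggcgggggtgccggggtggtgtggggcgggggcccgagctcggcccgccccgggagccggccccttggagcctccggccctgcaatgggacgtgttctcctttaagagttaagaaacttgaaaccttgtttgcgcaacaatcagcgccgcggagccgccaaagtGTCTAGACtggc
SMAD7: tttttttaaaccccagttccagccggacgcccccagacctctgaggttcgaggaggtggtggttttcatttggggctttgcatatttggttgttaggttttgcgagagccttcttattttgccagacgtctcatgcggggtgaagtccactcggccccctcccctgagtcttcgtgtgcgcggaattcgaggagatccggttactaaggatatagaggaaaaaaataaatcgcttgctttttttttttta
BAMBI: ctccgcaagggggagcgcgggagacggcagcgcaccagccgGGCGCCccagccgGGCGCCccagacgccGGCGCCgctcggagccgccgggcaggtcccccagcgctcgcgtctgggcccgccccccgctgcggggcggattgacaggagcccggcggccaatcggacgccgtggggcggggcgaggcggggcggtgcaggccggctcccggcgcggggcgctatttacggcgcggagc
The 250 bases before the start of SMAD6 held 1 GTCTAGAC, which 64 of all 35116 RefSeq promoters (0.182%) held in the same window. Those of BAMBI held 3 copies of GGCGCC, and those of SKIL held 1. At least 1 copy was present in 5752 promoters (16.4%), and promoters with 3 were not counted apart. The BAMBI window was 81.2% G and C, and that of SKIL 78.4%. Both motifs read the same on either strand, and no copy overlapped another. None of the 3 starts listed for SMAD7 and neither of those for SMURF1 and SMURF2 had a match to these letters. Each match is a description of the sequence and not a measured binding site.

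Library totals ranged from 37957385 to 71333471 counts in the time series and from 15600931 to 33989998 in the dose response. The untreated library was the shallowest and had 7.89% of its counts on mitochondrial genes, against 4.22 to 4.49% in the other 5 dose libraries. The first 0 h library had 7.6%, against 2.01 to 4.29% in the other 6 time libraries. Whether this share took part in the contrasts with untreated or with 0 h was not tested. The pluripotency markers were expressed at the start, and all 8 stood lower at 42 h, though by very different amounts. SOX2 was at 374 CPM (read counts scaled by library size) at 0 h and 13.4 CPM at 42 h, and NANOG was at 128 and 1.25 CPM. POU5F1 was nearly level, at 1331 and 1322 CPM, and LIN28A was at 2928 and 2085 CPM. At 5 h POU5F1 was at 1539 CPM untreated and 2352 CPM with BMP4 and no LDN. All 8 amnion markers were higher at 42 h than at 0 h, among them HAND1 at 0.0327 and 3370 CPM. The summed markers of primitive streak, mesoderm and endoderm were at 4.65 CPM at 0 h and 2.62 CPM at 42 h. FOXA2 went from 2.99 to 0.132 CPM, and 4 of the 6 were higher at 42 h, each at 0.509 CPM or less. These are bulk samples, so that a change in the number of cells of a type and a change in the RNA per cell cannot be told apart. The time series was made with ribosomal RNA depletion and the dose response with polyA selection, and levels are not compared between them.

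SMAD6, SMAD7 and BAMBI rose within 4 h of BMP4 and stayed high to 42 h. SMAD6 and BAMBI rose from low levels by more than 100-fold at their highest, and SMAD7 rose by a smaller factor from a higher start. Scaled by library totals alone, the largest rise of BAMBI was 95.5-fold. SMURF1 was called higher and SKIL lower at 42 h alone, and neither call held under every alternative. SMURF2 and SKI passed the test at no time. Library sizes behind the CPM values were scaled by the trimmed mean of M values (TMM). Each time was compared with 0 h by the quasi-likelihood test of edgeR, and p-values were adjusted after Benjamini and Hochberg over 15976 genes.

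SMAD6 was at 6.48 and 7.58 CPM in the 0 h libraries, and at 284, 589, 944, 691 and 818 CPM at 4, 12, 20, 28 and 42 h. Every later library was far above both 0 h libraries. The level was 40.4-fold above the 0 h mean at 4 h and highest at 20 h, at 134-fold. The log2 difference from 0 h was 5.34 ± 0.36 (SE) at 4 h and 6.86 ± 0.38 at 42 h, with adjusted p-values of 2.25e-46 and 6.96e-70 in edgeR. By size of increase SMAD6 stood in place 30 of the 15976 genes at 4 h and in place 104 at 42 h.

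BAMBI was at 8.91 and 10.0 CPM at 0 h, and at 222, 374, 584, 579 and 1068 CPM at the later times. The 20 and 28 h libraries were nearly level, and the 42 h library was the highest. The increase was 23.4-fold at 4 h and 113-fold at 42 h. At 4 h BAMBI had covered 20.1% of its largest rise, SMAD6 29.6% and SMAD7 50.2%. The log2 difference was 4.55 ± 0.35 (SE) at 4 h and 6.81 ± 0.38 at 42 h, with edgeR adjusted p-values of 5.71e-36 and 2.91e-70.

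SMAD7 was at 22.6 and 26.4 CPM at 0 h, and at 122, 149, 182, 160 and 219 CPM at the later times. By 4 h SMAD7 had covered 50.2% of its largest rise, and the later libraries were all above those at 0 h. The increase was 4.99-fold at 4 h and 8.94-fold at 42 h. The log2 difference was 2.32 ± 0.32 (SE) at 4 h and 3.16 ± 0.32 at 42 h, with edgeR adjusted p-values of 7.23e-11 and 7.39e-21. SMAD6, SMAD7 and BAMBI each stood lower at 28 h than at 20 h, with log2 differences of -0.45, -0.19 and -0.01. SKI, SKIL and SMURF2 were lower too, with -0.46, -0.40 and -0.08, while SMURF1 was higher by 0.15. With 1 library at each of these times the dips have no replicate check.

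**Figure D1:**
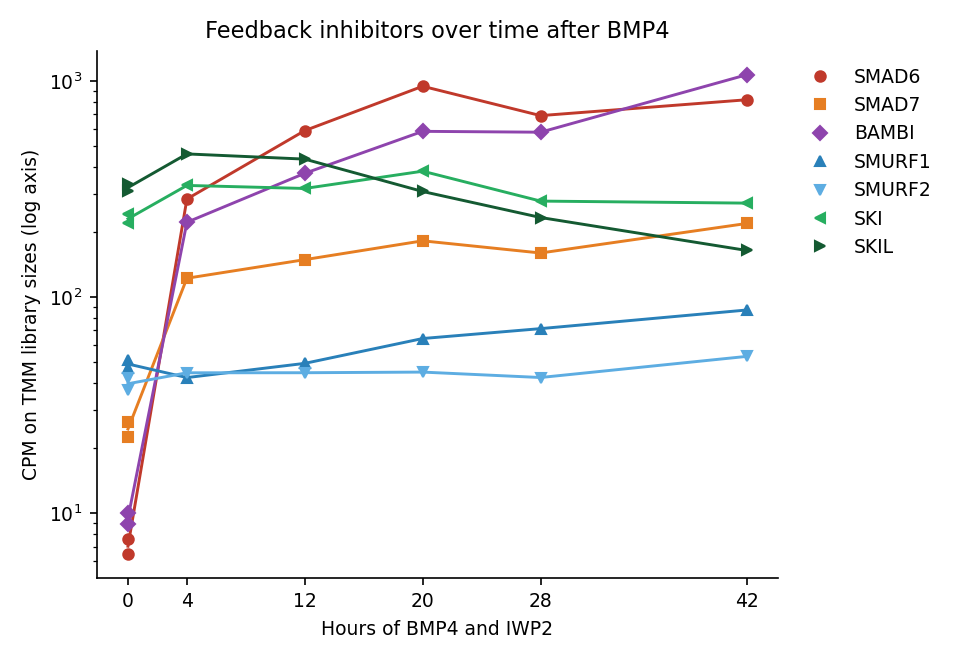
CPM on TMM library sizes (log axis) against hours of BMP4 and IWP2 for the 7 genes. Points are single libraries, 2 at 0 h and 1 at each later time, and lines join the means. SMAD6, BAMBI and SMAD7 climb from under 27 CPM to over 100 CPM by 4 h, while SKIL falls from 459 CPM at 4 h to 164 CPM at 42 h.

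The corepressors SKI and SKIL were already abundant before BMP4. SKIL was at 332 and 310 CPM at 0 h, and at 459, 435, 308, 233 and 164 CPM at the later times. It was above both 0 h libraries at 4 and 12 h and below both at 20, 28 and 42 h. The log2 differences at 4 and 12 h, 0.52 ± 0.33 and 0.44 ± 0.33 (SE), did not pass the test. At 42 h SKIL fell by 0.97 ± 0.35 on the log2 scale, with an edgeR adjusted p of 0.0202. Without the filter on low counts that p was 0.0594. SKI was at 241 and 219 CPM at 0 h, and at 328, 318, 382, 278 and 272 CPM later. Each later library was above both 0 h libraries, but the largest log2 difference, 0.73 ± 0.33 (SE) at 20 h, had an adjusted p of 0.111. The 95% interval of that difference ran from 0.08 to 1.38.

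The ubiquitin ligases changed by smaller factors than the inhibitory SMADs and BAMBI. SMURF1 was at 51.1 and 46.9 CPM at 0 h, and at 42.4, 49.3, 64.3, 71.4 and 87.1 CPM at the later times. It was below both 0 h libraries at 4 h and above both from 20 h on. At 42 h it was 1.78-fold higher, a log2 difference of 0.83 ± 0.32 (SE) with an edgeR adjusted p of 0.0285. Scaled by library totals alone the log2 difference was 0.59 and the adjusted p 0.132. SMURF2 was at 37.1 and 42.3 CPM at 0 h, and at 44.6, 44.6, 44.9, 42.4 and 53.1 CPM later. Its 42 h difference, 0.42 on the log2 scale with a 95% interval from -0.21 to 1.05, did not pass the test.

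Exons of SMURF1 overlap exons of TRRAP, a gene for a histone acetyltransferase adaptor on the other strand, and the sources used here do not state whether counting used the strand. The SMURF1 counts are therefore uncertain. TRRAP was at 289 CPM at 0 h (mean of 2 libraries) and 237 CPM at 42 h, a log2 difference of -0.29 with an adjusted p of 0.547. Reads in the shared exons were not counted apart, and whether they took part in the SMURF1 difference was not tested. SMURF2 overlaps CEP95 in the same way, which was at 19.4 CPM at 0 h and 19.7 CPM at 42 h. The pseudogene SMURF2P1 did not exceed 0.0817 CPM in the time series or 0.0348 CPM in the dose response.

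Counted together, 3 of the 7 genes were higher at 4, 12, 20 and 28 h, and 4 were higher and 1 lower at 42 h. Among all genes tested, the shares called higher at these 5 times in turn were 4.39%, 7.04%, 12.4%, 13.3% and 19.9%, and 17.8% were lower at the last. The median log2 difference of the 7 genes was 0.52 at 4 h and 0.83 at 42 h, against -0.01 over all genes at both times. The error in this fit came from the 0 h pair alone, with 1 residual degree of freedom, and was moderated to a spread shared by genes of like abundance. It assumes that the later libraries vary as the 0 h pair does, and the 5 contrasts share that pair. The labels do not say that the 0 h libraries were separate cultures, so that p-values may measure technical spread only. Between the 0 h libraries the 7 genes differed by -0.14 to 0.23 on the log2 scale, against an SD of 0.38 over 15961 genes.

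A straight line over hours gave another picture, because most of these profiles were curved. SMURF1 rose by 0.22 ± 0.04 (SE) on the log2 scale per 10 h, with an edgeR adjusted p of 0.00366. SKIL fell by 0.27 ± 0.08 per 10 h, with an adjusted p of 0.0311. That call was lost without the 4 h (adjusted p 0.0721), the 28 h (0.0821) or the 42 h library (0.292). BAMBI had a larger slope, 1.12 ± 0.40, but an adjusted p of 0.0592. The slopes of SMAD7, 0.57 ± 0.21, and SMAD6, 1.03 ± 0.55, had adjusted p-values of 0.0637 and 0.177. With log2(hours + 1) in place of hours, BAMBI, SMAD7 and SMAD6 passed the test (adjusted p 0.00269, 0.00402 and 0.0101), while SMURF1 and SKIL did not (0.0699 and 0.386). Of the 7 genes 1 was called higher and 1 lower in the straight-line fit, where 19.2% of 15976 genes were higher and 17.5% lower.

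At 5 h the receptor inhibitor lowered the same 3 strongly induced genes step by step. SMAD6 fell the most per dose, BAMBI next and SMAD7 least, and SKIL fell by a small amount. SMURF1, SMURF2 and SKI were nearly level across the doses. The trend was fitted over the 5 libraries with BMP4 against the dose step, numbered 0 to 4, with edgeR over 14907 genes. No dose has a replicate, so that the error is the scatter about the line.

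From 0 to 300 nM LDN, SMAD6 was measured at 164, 100.3, 56.9, 27.2 and 11.1 CPM, and the untreated library had 3.41 CPM, which is 51 counts. Each dose was below the last, and the highest dose was still above untreated. SMAD6 fell by 0.92 ± 0.03 (SE) on the log2 scale per step, with an edgeR adjusted p of 9.65e-09. Only 25 of the 14907 genes had a steeper decrease, which put SMAD6 in place 26.

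BAMBI was at 312, 277, 213, 113 and 49.0 CPM across the doses and at 12.8 CPM untreated. It decreased little at 10 nM and steeply from 30 nM on. BAMBI fell by 0.63 ± 0.07 (SE) per step, with an adjusted p of 2.95e-05. SMAD7 was at 75.1, 67.0, 56.5, 42.5 and 34.4 CPM, and at 23.0 CPM untreated. It fell by 0.29 ± 0.02 (SE) per step, with an adjusted p of 3.96e-07. Its untreated level was a larger part of its induced level than that of BAMBI or SMAD6, and this bounds how far the log2 value can fall.

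SKIL was at 298, 275, 282, 268 and 250.3 CPM, and at 225 CPM untreated. The treated libraries were all above the untreated one, and 300 nM was the lowest of them. SKIL fell by 0.05 ± 0.01 (SE) per step, with an adjusted p of 0.00536. The call rested on the highest dose, since without the 300 nM library the adjusted p was 0.102. On the deposited FPKM values, tested with limma, it was 0.148. SKI was at 162, 164, 164, 163 and 160.3 CPM, and at 152 CPM untreated. SMURF1 was between 37.0 and 39.1 CPM in the treated libraries and at 39.2 CPM untreated, and SMURF2 was between 40.0 and 43.5 CPM and at 41.0 CPM. The 95% intervals of their slopes, -0.03 to 0.02 for SKI, -0.04 to 0.03 for SMURF1 and -0.06 to 0.01 for SMURF2, all held 0.

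**Figure D2:**
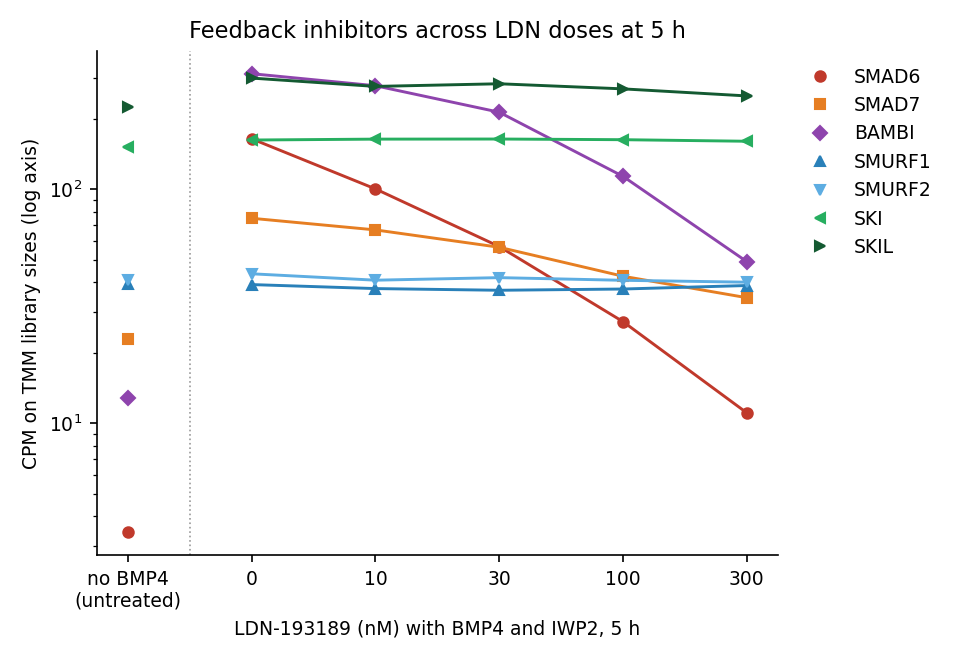
CPM on TMM library sizes (log axis) for the 7 genes in the untreated library and at 5 LDN doses with BMP4 and IWP2, after 5 h. Each point is 1 library. SMAD6 falls from 164 to 11.1 CPM and crosses SMAD7 at about 30 nM. Across the 5 doses SKI and both SMURF genes stay within 5 CPM of their values at 0 nM LDN. SKI is lower in the untreated library, at 152 CPM.

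In all 4 of the 7 genes fell with dose and 0 rose, where 10.9% of all genes tested were lower and 10.4% higher. Their median slope was -0.05, against -0.00068 over all genes. SMAD6, BAMBI and SMAD7 passed the test under each alternative that was run, including without any single dose.

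**Figure D3:**
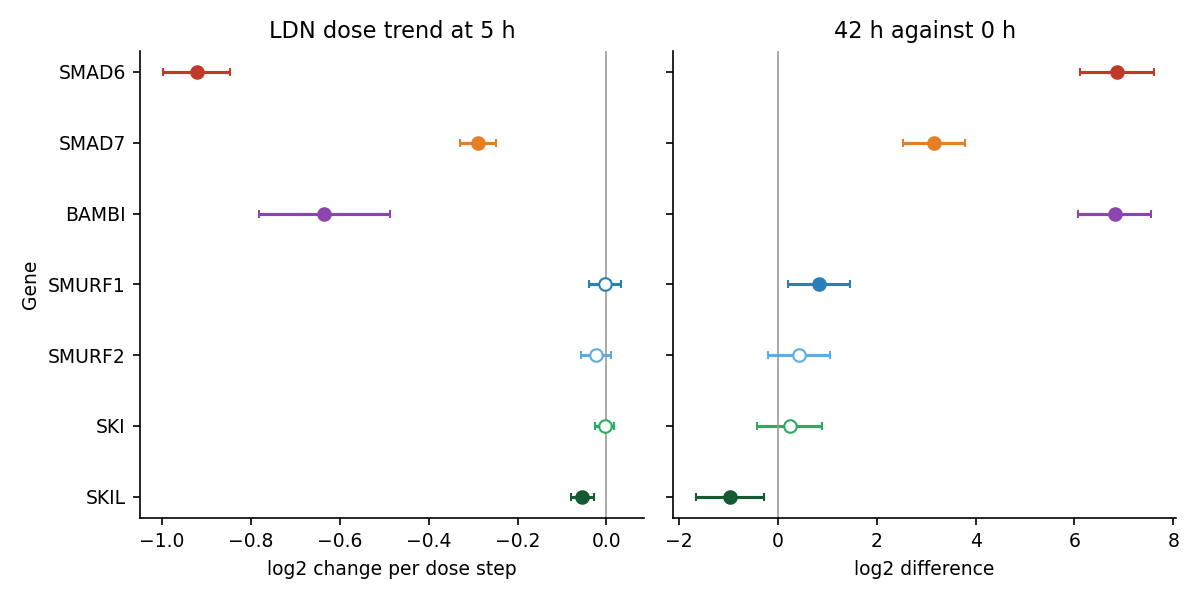
Fitted log2 change per LDN dose step (left) and log2 difference between 42 h and 0 h (right) for the 7 genes, with 95% intervals. Filled points passed an adjusted p of 0.05 in edgeR and open points did not. SMAD6 has the lowest slope, -0.92, and SMAD6 and BAMBI the largest differences at 42 h, 6.86 and 6.81.

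The untreated library was set against the fitted dose line at both its ends, by edgeR over 14877 genes. Without LDN, SMAD6 was higher than untreated by 5.72 ± 0.24 (SE) on the log2 scale, BAMBI by 4.95 ± 0.41, SMAD7 by 1.79 ± 0.10 and SKIL by 0.39 ± 0.05. Their adjusted p-values were 7.87e-09, 1.55e-06, 5.13e-08 and 4.42e-05. The other 3 differed by 0.11 or less, and SKI (0.11 ± 0.04) had an adjusted p of 0.0566. Scaled by library totals SKI passed the test (0.19, adjusted p 0.00288), and on FPKM values too (0.26, adjusted p 0.0161). So 4 of the 7 were higher, where 23.0% of all genes were. Directly between the 0 nM LDN and untreated libraries, the log2 differences were 5.59 for SMAD6, 4.61 for BAMBI, 1.71 for SMAD7 and 0.40 for SKIL.

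At 300 nM LDN the same 4 genes had not returned to the untreated level. BAMBI was higher than untreated by 2.41 ± 0.45 (SE) on the log2 scale, SMAD6 by 2.03 ± 0.34, SMAD7 by 0.63 ± 0.10 and SKIL by 0.18 ± 0.05. The adjusted p-values in edgeR were 0.00152, 0.000731, 0.000534 and 0.0157. For SKIL it was 0.112 on FPKM values and 0.0746 without the 100 nM library. SKI passed here too when scaled by library totals (0.16, adjusted p 0.0122). Over all genes 16.5% were higher in this contrast. These differences are between the fitted line and 1 library, which was assumed to vary like the treated ones. Taken directly between libraries, 300 nM LDN was 3.83-fold above untreated for BAMBI, 3.24-fold for SMAD6, 1.5-fold for SMAD7 and 1.11-fold for SKIL. On the log2 scale these are 1.94, 1.70, 0.58 and 0.15, each below the value from the fitted line.

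Log2 slopes depend on the level that a gene has without BMP4, so the dose profiles were also put on the scale of the BMP4 increment, the level above untreated. At 10 nM LDN 60.2% of the SMAD6 increment was left, against 88.3% for BAMBI and 84.4% for SMAD7. The 95% counting interval for SMAD6, 57.5 to 62.9%, lay below those of BAMBI, 85.7 to 91.0%, and SMAD7, 77.1 to 91.8%. SMAD6 thus fell below 50% of its increment between 10 and 30 nM, and BAMBI and SMAD7 between 30 and 100 nM.

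At 30 nM LDN 33.2% was left for SMAD6, 67.1% for BAMBI and 64.2% for SMAD7. At 100 nM the values were 14.8, 33.7 and 37.4%. BAMBI and SMAD7, whose log2 slopes differed by more than a factor of 2, had overlapping counting intervals at these doses, 64.9 to 69.3% and 57.8 to 70.7% at 30 nM and 32.2 to 35.2% and 31.7 to 43.1% at 100 nM. At 300 nM LDN the 3 genes stood apart, with 4.76% left for SMAD6 (3.85 to 5.66%), 12.1% for BAMBI (11.1 to 13.1%) and 21.9% for SMAD7 (16.4 to 27.3%). SKIL had 67.8, 77.8, 58.8 and 34.1% left at the 4 doses, from an increment of only 1.32-fold over untreated. These intervals cover counting error only and hold nothing of the spread between cultures. The values of all 4 genes rest on the same untreated and 0 nM libraries.

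**Figure D4:**
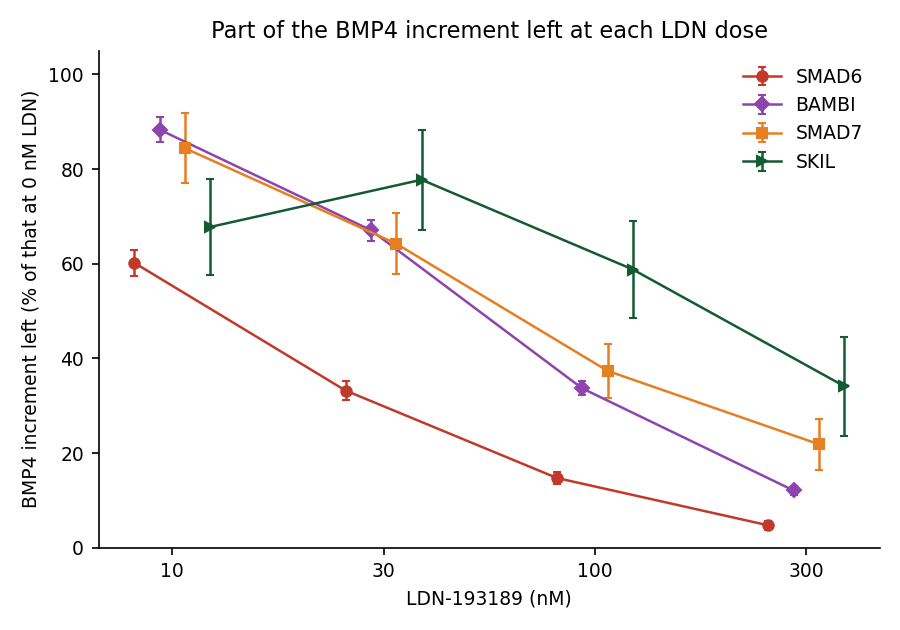
Percent of the BMP4 increment (level above untreated, relative to that at 0 nM LDN) left at each LDN dose for the 4 genes that fell with dose. Points are single libraries, set side by side within a dose, and bars are 95% counting intervals. SMAD6 lies lowest at every dose, and BAMBI and SMAD7 separate only at 300 nM.

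Ratios of counts within a library do not depend on its scaling, and their slopes restate the differences between the slopes above without it. The ratio of SMAD6 to BAMBI counts was 0.527, 0.362, 0.267, 0.239 and 0.226 from 0 to 300 nM LDN. Its log2 slope was -0.30 ± 0.06 (SE) per step. The ratio of SMAD6 to SMAD7 went from 2.19 to 0.322, with a slope of -0.68 ± 0.05. The slope for BAMBI to SMAD7 was -0.37 ± 0.11, and those of SMAD6, BAMBI and SMAD7 to SKIL were -0.91 ± 0.07, -0.61 ± 0.12 and -0.24 ± 0.03. In all 6 pairs the exact permutation test over the 5 libraries, two-sided, gave p = 0.0167, the smallest that 120 orders allow, and the adjusted p was 0.0167 as well. The pairs were set after the slopes in the same libraries were known, and every ratio fell at each dose. These p-values therefore add no support of their own to the order of the slopes.

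Levels of different genes were compared as deposited FPKM, which is per length of transcript. At 0 h the order was SKIL at 98.5 ± 1.68, SKI at 60.1 ± 23.1, SMURF2 at 12.6 ± 2.47, SMURF1 at 10.8 ± 0.148, SMAD7 at 9.0 ± 0.75, BAMBI at 6.75 ± 0.559 and SMAD6 at 1.91 ± 0.325 FPKM (SD, n = 2). SMURF1 and SMURF2 differed by less than the SD of SMURF2. SKI differed between the 0 h libraries in FPKM, at 76.5 and 43.8, far more than in CPM, so its place is the least certain. The corepressors together made up 79.4% of the summed FPKM of the 7 genes.

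This order turned over under BMP4, IWP2 and RI, whose parts and the time in culture cannot be told apart here. At 4 h BAMBI led at 166 FPKM, before SKIL at 149 and SMAD6 at 99.5. At 42 h BAMBI was at 642, SMAD6 at 258, SMAD7 at 69.5, SKI at 45.6, SKIL at 43.9, SMURF1 at 16.7 and SMURF2 at 11.7 FPKM. BAMBI alone made up 59.0% of the summed FPKM at 42 h, up from 3.38% at 0 h. The sum itself went from 199.7 FPKM at 0 h to 1088 FPKM at 42 h.

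In the dose response BAMBI led at 0, 10, 30 and 100 nM LDN, with 220.4, 194, 149 and 79.3 FPKM. At 300 nM SKIL led at 68.3 FPKM, with BAMBI at 34.1. SMAD6 followed BAMBI and SKIL at 0 nM, at 44.5 FPKM, and was last at 100 and 300 nM, at 6.72 and 3.15 FPKM. Both inhibitory SMADs were near each other without LDN, SMAD7 at 36.0 FPKM, and at 300 nM SMAD7 was at 17.4 FPKM. In untreated cells SKIL led at 60.6 FPKM and SMAD6 was last at 0.98 FPKM, as at 0 h in the time series.

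**Figure D5:**
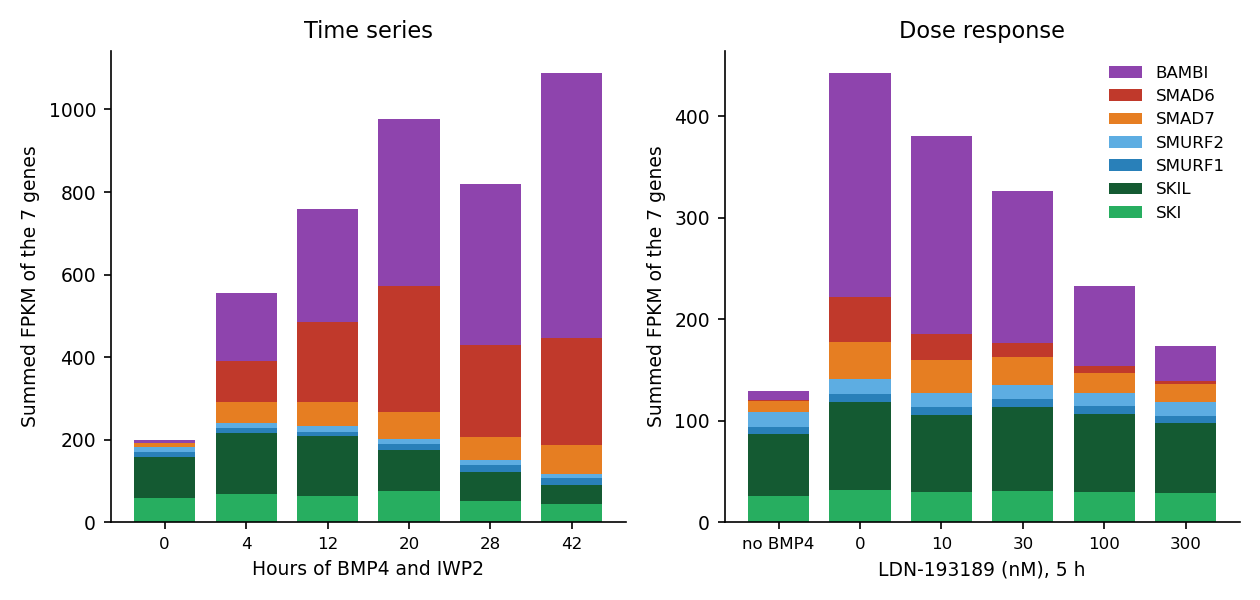
Deposited FPKM of the 7 genes, stacked, by time (left, 0 h as the mean of 2 libraries) and by LDN dose at 5 h (right). The vertical scales differ and the experiments are not comparable in level. The sum rises from 199.7 at 0 h to 1088 at 42 h and falls from 442 at 0 nM LDN to 173 at 300 nM, and BAMBI makes the largest part of both changes.

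The genes with the most similar profiles were found by the distance between 10 log2 changes, 5 over time and 5 over dose, among 14556 genes. The nearest to SMAD6 were NOTUM (distance 1.84), which encodes a secreted Wnt inhibitor, LINC02593 (1.86) and BAMBI (2.09). Those nearest to BAMBI were SMAD6, GATA5 (2.26), which encodes a transcription factor, and ID4 (2.48), a known BMP target. SMAD6 and BAMBI were thus each among the 3 nearest genes of the other. SMAD7 had HES1 (0.804), FURIN (0.944) and RASGEF1B (0.997) nearest, and its distance to SMAD6 was 10.1 and to BAMBI 8.63. Such distances depend on the size of the changes as well as on their shape. By distance from SMAD6, SMAD7 stood in place 108, and by distance from SMAD7, BAMBI stood in place 13598. HES1 encodes a repressor in Notch signalling and FURIN a protease that matures BMP ligands.

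Profiles with smaller changes had closer neighbours, at 0.214 and 0.215 for SMURF1 (EMC10, SREBF2), 0.157 to 0.186 for SMURF2 (PRKAR2A, PIGG, DEDD2) and 0.235 to 0.257 for SKI (CPAMD8, DYNC1H1, PKD1P4). SKIL was nearest to ZSCAN30, DOCK5 and FDXACB1, at 0.431 to 0.441. These distances are descriptions over 10 values that share the 0 h libraries and the untreated library.

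The rest of the pathway was read from lists, and each count below stands against the shares over all genes given above. These were 10.4% higher and 10.9% lower with LDN, and 19.2% higher and 17.5% lower over hours. Among BMP receptors and SMADs 5 of 9 tested genes fell with LDN and 0 rose, with a median slope of -0.09 against -0.00068 over all genes. SMAD9, a receptor SMAD like SMAD1 and SMAD5, fell by 0.82 ± 0.04 (SE) per step (edgeR adjusted p 8.06e-08), between SMAD6 and BAMBI in size. BMPR2, the type II receptor, fell by 0.20 ± 0.02 (adjusted p 3.90e-06). SMAD9 was higher at 4 h by 3.54 on the log2 scale (adjusted p 6.73e-25), while SMAD1, SMAD5 and SMAD4 passed the test at neither 4 nor 42 h. SMAD1 did fall with LDN, by 0.11 per step (adjusted p 0.0017), and rose over hours by 0.18 per 10 h (adjusted p 0.0368). Over hours ACVR1 rose by 0.48 ± 0.08 and BMPR2 by 0.43 ± 0.09 per 10 h (adjusted p 0.00304 and 0.00666), among 4 of 10 that rose.

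All 7 tested BMP target genes of the list fell with LDN, with a median slope of -0.49. MSX2 and HEY1, which encode transcription factors, fell by 0.92 ± 0.11 and 0.89 ± 0.03 per step, close to SMAD6. ID2 and ID4, which encode inhibitors of basic helix-loop-helix factors, fell by 0.49 and 0.50. At 4 h 7 of 8 were higher than at 0 h, and at 42 h again 7 of 8, with median log2 differences of 3.41 and 4.80. In the straight-line fit over hours 3 of 8 rose, led by MSX1 at 2.44 ± 0.11 and MSX2 at 2.11 ± 0.54 per 10 h (adjusted p 9.09e-06 and 0.0181). Of secreted BMP antagonists 4 of 8 fell with LDN and 0 rose, with a median slope of -0.20. NOG, which encodes the ligand trap Noggin, fell by 1.48 ± 0.06 per step, more than any of the 7 inhibitors, and GREM1 by 0.62 ± 0.06 (adjusted p 2.78e-08 and 1.05e-05). However, NOG was at only 0.240 CPM at 300 nM LDN and 0.134 CPM untreated, close to the 0.0883 to 0.192 CPM that 3 counts make there. Log2 slopes depend on such levels, so the size of the NOG slope is not directly comparable with those of the 7 genes.

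Other intracellular regulators of SMADs, such as other ubiquitin ligases, phosphatases and corepressors, had small slopes with LDN. Of 22 tested, 5 rose and 3 fell, with a median slope of 0.01. More of them differed between BMP4 without LDN and untreated, where 4 were higher and 11 lower, with a median of -0.12 on the log2 scale. Over all genes 23.0% were higher and 22.0% lower in that contrast, with a median of 0.02. TGIF1, a corepressor of SMAD2 and SMAD3, rose by 0.13 ± 0.01 per step (adjusted p 2.42e-05), and had a log2 difference of -1.24 at 4 h (adjusted p 0.0101). CTDSPL, which encodes a phosphatase, rose by 0.09 ± 0.02, its relative CTDSP1 fell by 0.11 ± 0.03 and TGIF2 fell by 0.08 ± 0.01 per step. TOB1, an antiproliferative gene, had a log2 difference of -1.27 at 4 h (adjusted p 0.00411), and CTDSP1 one of 1.99 at 42 h (adjusted p 2.16e-09). Over hours CTDSP1 rose by 0.46 ± 0.05 and USP9X, which encodes a deubiquitinase, fell by 0.42 ± 0.06 per 10 h, among 2 that rose and 2 that fell. Of the 7 partners of SKI and SKIL in corepressor complexes, SIN3A alone passed in the dose and hours trends, rising by 0.06 ± 0.01 per step and falling by 0.14 ± 0.05 per 10 h. Against untreated, 3 of the 7 were lower with BMP4 and no LDN, namely SIN3A (-0.20), NCOR1 (-0.23) and HDAC2 (-0.27), with adjusted p-values of 0.00417, 0.00112 and 0.000228.

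In the activin, Nodal and TGF-beta branch 3 of 7 tested receptors and SMADs rose with LDN and 1 fell. TGFBR2 rose by 0.15 ± 0.04 and SMAD3 by 0.15 ± 0.03 per step, and SMAD2 fell by 0.05 ± 0.01. Over hours TGFBR3 rose by 0.60 ± 0.12 and the Nodal co-receptor gene TDGF1 fell by 1.26 ± 0.11 per 10 h (adjusted p 0.00597 and 0.00014), among 2 that rose and 1 that fell. Of 5 tested targets of SMAD2 and SMAD3, 1 rose and 1 fell with LDN. LEFTY1 rose by 0.64 ± 0.07 per step (adjusted p 2.37e-05), from 1.57 CPM at 0 nM LDN to 7.62 CPM at 300 nM. GDF3 fell by 0.21 ± 0.03 per step (adjusted p 0.000392). Over hours 3 of the 5 fell and 0 rose, among them LEFTY1 by 2.03 ± 0.33 per 10 h (adjusted p 0.00256).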

How the data were processed

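Bulk RNA-seq of 13 libraries was analysed from 2 tables of expected counts and the matching FPKM tables. Read trimming by the authors used Cutadapt, alignment STAR 2.7.8a on GRCh38 (Ensembl, release not given in the sources used here) and quantification RSEM 1.3.3, which gave the expected counts. The expected counts are whole numbers as deposited. The authors also deposited FPKM values, scaled by transcript length and library size, whose transcript lengths RSEM estimates in each library. Features that are not on the genome (5, under 0.00301% of counts) were left out. Whether counting used the strand is not given in the sources used here.

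Genes averaging 1 CPM or more were tested with edgeR 4.0.16 (R 4.3.3, TMM scaling, quasi-likelihood F test) at a Benjamini-Hochberg adjusted p of 0.05. The fits were the dose step over 5 libraries, the same line with an indicator for untreated over 6 libraries, hours over 7 libraries and time as a factor over 7 libraries. The study related expression to its own SMAD4 measurements, and the dose step takes their place here. Counts were also simulated with 200 changed genes that followed each fitted model exactly, and with the same low dispersion for all genes. Of these, 92.5% were found in the dose trend (14907 genes), 99.0% in the trend with hours and 97.0% at 42 h (15976 genes each). The false calls were 6, 8 and 9 in turn. The dispersion was set and not estimated from these data, so the simulation checks the fitting steps and does not measure power here. Alternatives were DESeq2 1.42.0, limma 3.58.1 on log2(FPKM + 0.1), and other scalings, filters and covariates. Each library in turn was also left out of the dose and hours trends. No fit of the contrasts with 0 h left out a library. For the contrasts with untreated, DESeq2, no filter and leaving out the 10, 30 or 100 nM library were added after seeing the data. Exact permutation tests and figures used Python 3.11.15 with scipy 1.17.1 and matplotlib 3.10.9. With 3 counts as the floor, a gene at 0 could reach 0.0421 to 0.079 CPM in the time series and 0.0883 to 0.192 CPM in the dose response.

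The 7 genes, the pathway lists and the markers were chosen with earlier results of these data known. Named pathway genes were up to 2 in each direction with the largest dose slope per list and up to 2 with the largest hours slope. They were taken among called genes averaging 5 CPM or more. SMAD1, SMAD4, SMAD5, ID2, ID4, TOB1, NCOR1 and HDAC2, and the dose slope of LEFTY1, were added after their values were seen. The 3 nearest genes per member were named, on log2(CPM + 0.5), except 1 that is not reported here. The slopes of count ratios and the increment scale were added after the data were seen. Promoter sequences were from RefSeq and matched 6 of the 7 genes. Proteins were not used here.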

Additional observations from a re-analysis of the deposited data

How the results depend on the processing

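SMAD6, SMAD7 and BAMBI kept direction and call in the dose trend, both untreated contrasts and every contrast with 0 h under each alternative run. For the contrasts with 0 h no alternative fit left out a library. Of 469 alternative values of single genes in fitted tests, 423 kept both, 14 gained a call, 12 lost one and 20 changed sign. No paired analysis was possible because the groups share no replicate numbers beyond the 0 h pair.

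With FPKM and limma, 1107 genes were called in the dose trend (3180 by edgeR on counts). In the contrasts with 0 h, FPKM gave 225 (4 h), 591 (12 h), 1562 (20 h) and 1983 (28 h) genes, against 802, 1547, 2949 and 3248. DESeq2 gave 455 (4 h) and 971 (12 h). Over hours, 5 of the 7 genes were called with FPKM, where 2102 of all 15976 genes were higher and 3750 lower. DESeq2 called 4 of the 7, where 3342 of 15976 were higher and 3249 lower. With no filter on low counts 4 were called, where 3791 of 39033 were higher and 3048 lower. The fit reported called 2, where 3072 of 15976 were higher and 2793 lower. With log2(hours + 1), 3413 genes were called in place of 5865. Leaving out 1 library gave 1978 (without 0 nM LDN) to 2974 genes in the dose trend, with 2102 without 300 nM. Over hours it gave 3265 of 16042 genes (without 42 h) to 6602 of 16022 (without the second 0 h library), and 1 to 2 of the 7. SKIL lost its call over hours without the 4, 28 or 42 h library, and its dose call without 300 nM.

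The sign changes were all of values that passed no test. SMURF1 turned to 0.0010 in the dose trend with no filter, and ranged from -0.0208 to 0.0145 when 1 library was left out. Without LDN against untreated it turned to 0.0416 (library totals) and 0.152 (FPKM), at 300 nM to 0.0157 and 0.0272, and at 12 h to -0.00182 with DESeq2 and with its size factors. SKI ranged from -0.0103 to 0.00196 in the dose trend and from -0.00866 to 0.136 over hours when 1 library was left out. It turned to -0.0186 (library totals) and -0.0824 (FPKM) over hours, and with FPKM to -0.148 at 28 h and -0.345 at 42 h. SMURF2 turned with FPKM to -0.0245 without LDN against untreated, -0.0406 over hours, -0.0678 (20 h), -0.120 (28 h) and -0.0920 (42 h), and with library totals to 0.0329 at 300 nM against untreated. Scaling by library totals shifted the median of all genes at 42 h to -0.25, against -0.01 with TMM, and without LDN against untreated to 0.10, against 0.02. The causes were not tested. With 1 library per condition, depth sets the counting error of a gene but not the spread between cultures.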
